A study of Mus musculus with 10 samples.

Results

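The 9 genes described here encode the clotting and clot-dissolving proteins that endothelial cells carry or release: Vwf, F8, F3, Thbd, Procr, Tfpi, Plat, Plau and Plaur. They were chosen by name, and all 9 were found among the 46983 gene rows of the deposited count table by matching its versioned mouse Ensembl identifiers to gene symbols. The names were put forward with the diet results of these libraries known, so the diet values of the 9 genes are given as a description, and no measured cut-off was part of the choice.

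The libraries came from CD31+ cells of the hearts of male wild-type C57BL/6J mice that were 8 weeks old when the diets began. Of the 10 mice, 5 received the control diet (11.6 kcal% fat) and 5 the ketogenic diet (89.5 kcal% fat) for 14 days, with 1 library per mouse. Cells were released by collagenase and dispase and captured with magnetic beads carrying CD31 antibody. CD31 is the product of Pecam1 and is also present on platelets and leukocytes, so the capture was not specific to endothelial cells. All mice were of 1 strain and 1 sex, and no knockout or transgene was involved.

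Endothelial cells keep blood fluid by holding thrombomodulin and the protein C receptor on their surface, by making tissue factor pathway inhibitor, and by releasing tissue-type plasminogen activator. They also store von Willebrand factor, which binds platelets and carries factor VIII, in Weibel-Palade bodies that empty on stimulation. Tissue factor, which starts coagulation, is normally scarce in resting endothelium, while urokinase and its receptor act at the cell surface in fibrinolysis and migration.

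Total counts were between 10885154 and 12710861 reads per library, with medians of 11285659 for the control diet and 11837379 for the ketogenic diet. The endothelial markers Pecam1 and Cdh5 had at least 6770 and 7356 reads in every mouse, and the summed level of 9 endothelial markers was between 4317 and 4624 CPM (counts scaled to a common library size) on the control diet and between 4175 and 4733 CPM on the ketogenic diet. Several of these markers were themselves near or above their number of start positions, with Pecam1 at 98.4% to 102% and Cdh5 at 92.1% to 94.8%, so their even sum does not show an equal endothelial content. RNA of other cell types was also present. The sum of 7 smooth muscle and pericyte markers was between 2324 and 2591 CPM over all mice, and that of 8 fibroblast markers between 682 and 835 CPM. Some of these markers were also near their number of start positions, with Myh11 at 66.5% to 80.4% and Dcn at 81.1% to 92.4%. Others, such as Kcnj8 at up to 22.3% and Col1a1 at up to 2.71%, were not. The narrow ranges of these sums thus do not show an equal content of these cells either. The sum of 9 cardiomyocyte markers, Myh6 and Tnnt2 among them, ran from 565 to 706 CPM on the control diet and from 659 to 948 CPM on the ketogenic diet, and that of 8 macrophage and monocyte markers from 170 to 574 CPM and from 151 to 314 CPM. No marker of these lists was at 0 in any mouse.

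The read counts of the most abundant members lay close to the number of places in the transcript where a read can start, and this touches the diet values given further on. Across the 15900 tested genes with a known transcript length, raw counts seldom passed the number of start positions, taken as both strands of the longest coding transcript: the highest count went above it in 40 genes. The table thus looks as if each start position was counted about once, and whether duplicate reads were removed is not given in the sources used here. Plat used between 91.4% and 95.9% of its 5050 positions and Thbd between 87.6% and 91.9% of its 7446, shares reached by few genes (0.66% of those tested averaged 90% or more). Plaur stood at 63.2% to 76.6% and Vwf at 47.8% to 55.7%. By contrast, Procr used at most 36.9%, Tfpi 28.6%, Plau 7.73%, F8 0.818% and F3 0.534%.

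The reads nearest to the number of start positions varied least. The coefficient of variation of the raw reads over the 10 mice was 1.45% for Thbd and 1.61% for Plat, against 4.77% for the library totals. If reads fell evenly over the positions and each position counted once, a doubling of the RNA would raise the log2 count by 0.096 for Plat, 0.14 for Thbd, 0.36 for Plaur and 0.55 for Vwf. The same doubling would raise it by 0.75 for Procr, 0.82 for Tfpi, 0.96 for Plau and by almost its full size for F8 and F3.

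**Figure D1:**
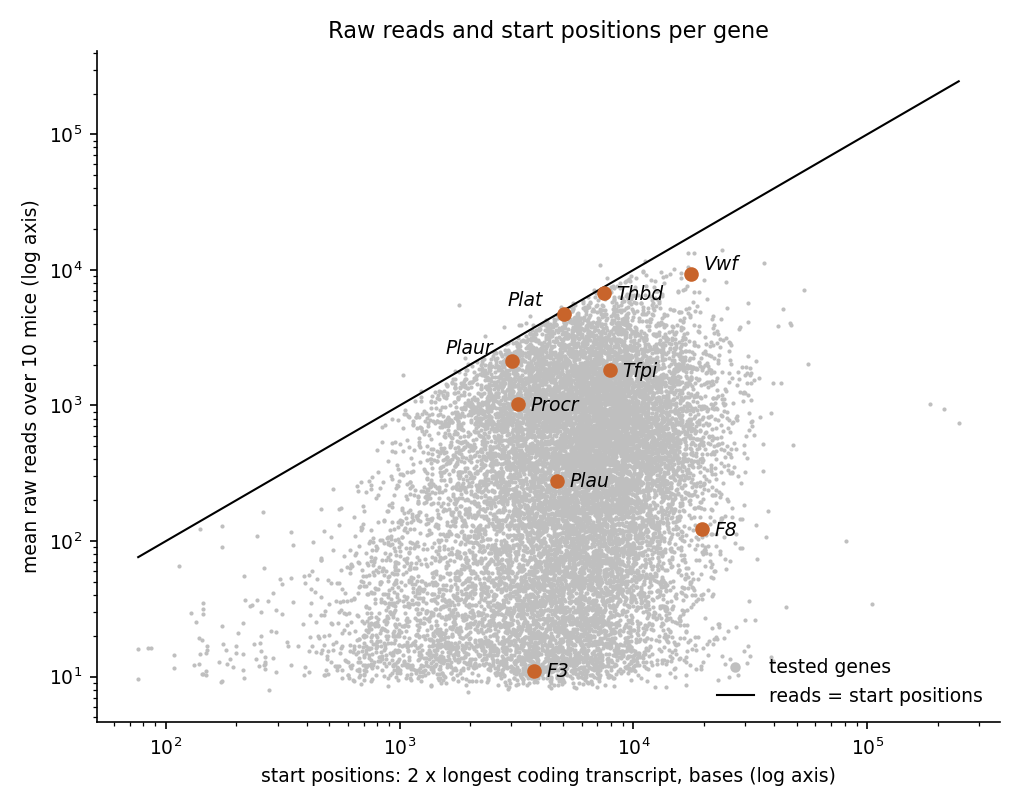
Mean raw reads per gene over the 10 mice (y axis, reads, log scale) against its start positions (x axis, 2 times the longest coding transcript in bases, log scale). Grey points are tested genes, orange points the 9 members, and the line marks as many reads as positions: Plat and Thbd lie almost on the line, Plaur and Vwf just below it, and F8 and F3 far below.

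Plat and Thbd were the most abundant of the 9 transcripts per length and F3 the least. Levels are given as the deposited RPKM (reads per kilobase of gene length, scaled to library size by the authors). The median over the 10 mice was 159 RPKM for Plat, which encodes tissue-type plasminogen activator, and 154 RPKM for Thbd, which encodes thrombomodulin, the receptor that turns thrombin toward protein C activation. Plaur, the urokinase receptor, followed at 31.3 RPKM and Vwf, von Willebrand factor, at 30.7 RPKM. Procr, the endothelial protein C receptor, had 22.3 RPKM, Tfpi, the inhibitor of tissue factor and factor VIIa, 12.4 RPKM, and Plau, urokinase, 10.5 RPKM. F8, coagulation factor VIII, had a median of 0.901 RPKM and F3, tissue factor, of 0.194 RPKM. The anticoagulant members and tissue-type plasminogen activator were thus well above the procoagulant F3 and F8 in each mouse. This did not hold for Vwf, also procoagulant. Vwf lay below Thbd and Plat, but above Procr in 10 of 10 mice, and its median was above that of Tfpi.

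Neighbours in this order were compared within each mouse by a two-sided exact sign-flip permutation test of the log2(RPKM + 0.1) difference over 10 mice, with Benjamini-Hochberg adjustment over the 8 neighbour pairs. Of these pairs, 7 differed. Plat was above Thbd in 10 of 10 mice, by 0.043 ± 0.017 (SD) on the log2 scale (exact adjusted p = 0.0026). The gap from Thbd to Plaur was 2.33 ± 0.082, and that from Plau to F8 was 3.32 ± 0.45, each in 10 of 10 mice (exact p = 0.00195, the smallest that 10 mice allow). Tfpi was above Plau in 8 of 10 mice, by 0.33 ± 0.27 (exact adjusted p = 0.0156). Plaur and Vwf did not differ beyond their spread on the deposited RPKM, with Plaur higher in 7 of 10 mice and a difference of 0.021 ± 0.11 (exact p = 0.547), but this depended on the gene length used.

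The lengths behind the deposited RPKM were far longer than the longest coding transcript for some genes and nearly equal to it for others. Their origin is not given in the sources used here. For Vwf the length was 26538 bases, against 8834 for its longest coding transcript and 16064 for all its exons joined. For Plaur it was 5958 against 1506 and 2617 bases. For Plat it was 2531 against a transcript of 2525 bases, and for Thbd 3723 against 3723. The deposited RPKM thus places Vwf and Plaur lower relative to Plat and Thbd than the transcript length does. With the longest coding transcript in its place, the 9 genes kept their order, with medians of 92.1 for Vwf and 124 for Plaur, but the gaps were other ones and all 8 neighbour pairs differed. Plaur was then above Vwf in 10 of 10 mice, by 0.42 ± 0.11 (SD) on the log2 scale (exact adjusted p = 0.00195). The gap from Thbd to Plaur shrank from 2.33 to 0.35 ± 0.082, while that from Tfpi to Plau grew from 0.33 to 1.95 ± 0.27. With Plat and Thbd so near their number of start positions, the sizes of their gaps to other genes are uncertain, and the small gap between them is one between shares of start positions.

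**Figure D2:**
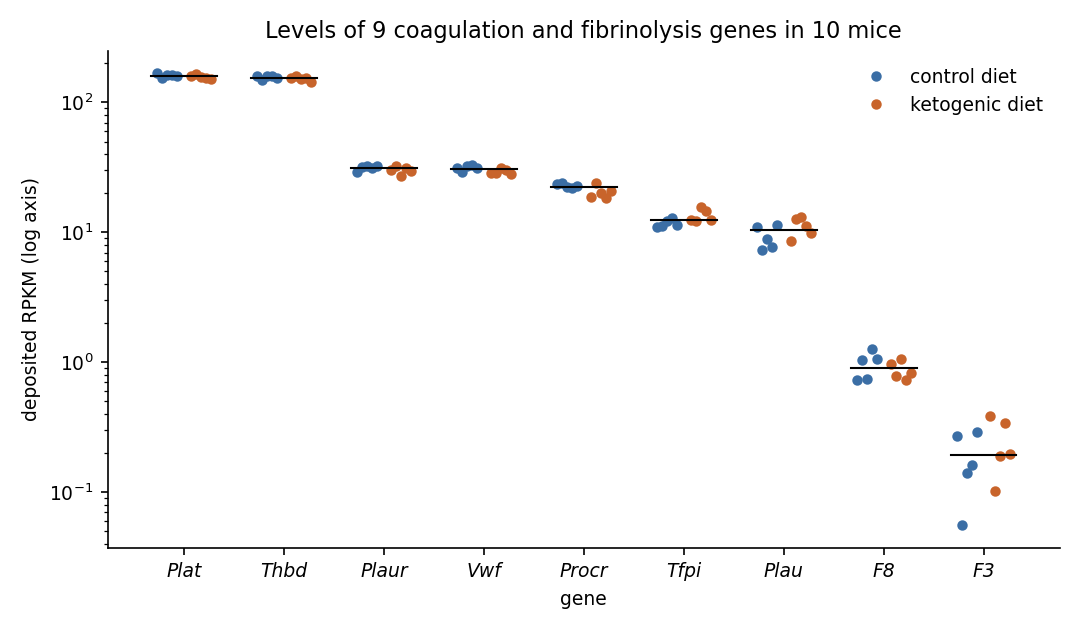
Deposited RPKM (y axis, log scale) of the 9 genes (x axis) in each of the 10 mice, blue for the control diet and orange for the ketogenic diet, with a black line at the median of all mice. The genes descend from Plat at 159 RPKM to F3 at 0.194 RPKM, and blue and orange points overlap in every gene.

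None of the 9 genes was called between the diets. At an adjusted p under 0.05 in the edgeR quasi-likelihood fit over all 15949 tested genes, 0 of 9 members passed, where 1.34% of all tested genes did. DESeq2 also called 0 of 9, against 5.54% of the genes it gave an adjusted p. At an unadjusted p under 0.05, 3 of 9 members passed, where 17.8% of all tested genes did. Of these, Vwf and Procr were lower on the ketogenic diet, a direction and p found in 9.26% of all tested genes, and Tfpi was higher, as were 8.57%. In none of the 9 did the diets fail to overlap, which was so for 4.34% of all tested genes. The median log2 fold change, ketogenic over control, was -0.049 for the members and -0.0057 for all tested genes, with 6 of 9 members below 0 against 51.4% of all tested genes. Since the diet values were known when the names were chosen, these counts describe the list and no more. In whole libraries of captured cells, fewer cells of a type and less RNA per cell cannot be told apart.

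Among the procoagulant members, Vwf (chr6:125546774-125686679, mm10, plus strand) was the one with the most reads. Normalized counts are raw reads scaled to a common library size by TMM (trimmed mean of M-values). For Vwf they were 9753, 8987, 10023, 10356 and 9701 in control mice 1 to 5 and 8820, 8821, 9580, 9304 and 8590 in ketogenic mice 1 to 5. In 3 ketogenic mice Vwf was below every control mouse, but the lowest control mouse lay within the ketogenic range. The means were 9764 ± 506 and 9023 ± 406 (SD, n = 5 each). The log2 fold change was -0.11 (standard error, SE, 0.0406), with a 95% interval from -0.20 to -0.025. With a cardiomyocyte marker score added to the fit it was -0.21 (SE 0.0447, edgeR adjusted p = 0.109). The cardiomyocyte sum was above every control mouse in most ketogenic mice, so no fit with this score can separate cardiomyocyte RNA from diet. After correction for start positions, an alternative added after the data were seen, the log2 fold change of Vwf was -0.15 (SE 0.0561). As Vwf used 47.8% to 55.7% of its start positions, the interval may not bound the change in its RNA. Vwf was not among the called genes.

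F8 (chrX:75172715-75382615, minus strand) had few reads, between 90 and 160 per mouse. Normalized counts of F8 were 97.2, 138, 98.3, 168 and 140 in the control mice and 128, 104, 139, 96.2 and 108 in the ketogenic mice. The F8 values overlapped almost fully, with means of 128 ± 30.4 and 115 ± 18.0. Its log2 fold change was -0.16 (SE 0.171), and the 95% interval from -0.53 to 0.21 spans both directions. The gene overlaps the start of Fundc2 on the other strand and holds the pseudogenes Gm6039 and Gm8522, and without strand in the libraries such reads cannot be assigned for certain.

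F3 (chr3:121723537-121735048, plus strand) was close to the limit of what these libraries can show. It had 13, 3, 7, 8 and 15 raw reads in the control mice and 20, 5, 10, 18 and 11 in the ketogenic mice. Counts this low overlap widely, and the log2 fold change of F3 was 0.39 (SE 0.448) with a 95% interval from -0.58 to 1.37. A difference of over 2-fold in the direction of the ketogenic diet is therefore within the interval, and tissue factor RNA can be described at this depth only as scarce.

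**Figure D3:**
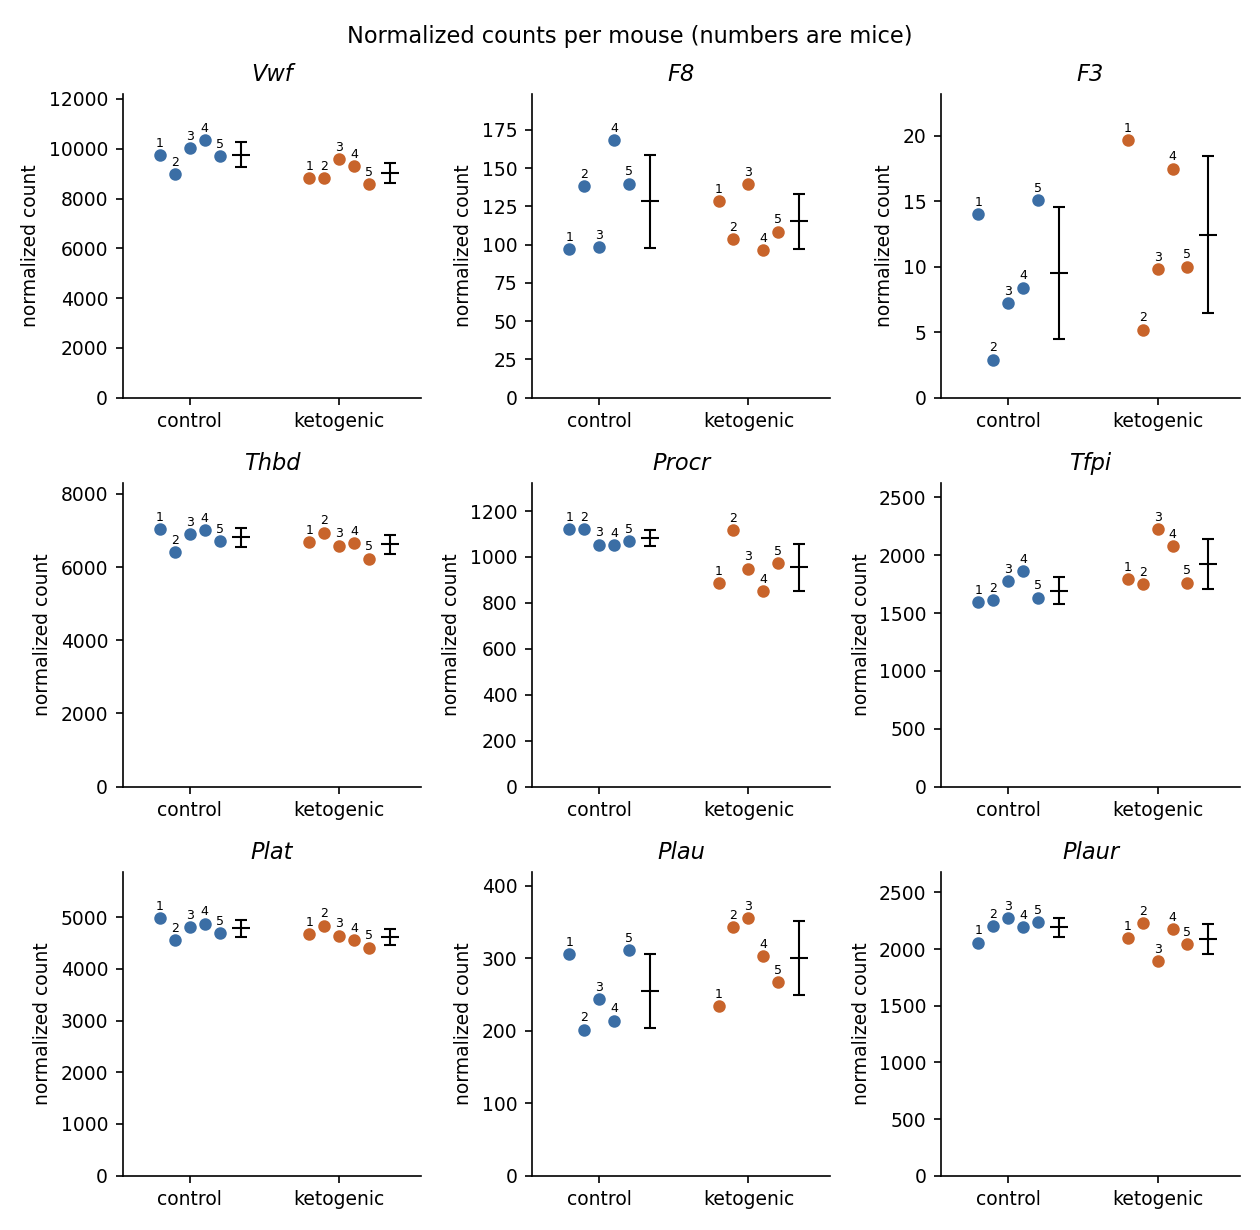
Normalized counts (y axis, starting at 0) of the 9 genes in the 5 control and 5 ketogenic mice, each point a mouse with its number, the black bar the mean and its whiskers the SD. The points of the diets overlap in all 9 genes; in Procr ketogenic mouse 2 stands with the controls at 1117 and the other 4 ketogenic mice lie below them.

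The anticoagulant members did not move as a block. Thbd (chr2:148404466-148408188, minus strand) had 6520 to 6844 raw reads in all mice. Normalized counts of Thbd were 7042, 6405, 6905, 7008 and 6715 in the control mice and 6682, 6938, 6583, 6651 and 6231 in the ketogenic mice. These overlapping values gave a log2 fold change of -0.043 (SE 0.0349) and a 95% interval from -0.12 to 0.034. As the raw reads of Thbd were nearly the same in each library, the normalized counts mainly repeat the scaled library sizes in reverse. After correcting each count for its start positions, an alternative added after the data were seen, the value was 0.017 (SE 0.0359). The interval of Thbd covers the spread of these counts and may not bound the change in its RNA.

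Procr (chr2:155751117-155755471, plus strand) binds protein C and hands it to the thrombin-thrombomodulin complex. Normalized counts of Procr were 1121, 1122, 1054, 1052 and 1068 in the control mice and 885, 1117, 948, 852 and 974 in the ketogenic mice. The control mice were tightly grouped, 4 ketogenic mice lay below all of them, and ketogenic mouse 2 lay among them. The means were 1083 ± 35.5 and 955 ± 102 (SD, n = 5 each), a log2 fold change of -0.18 (SE 0.0675) with a 95% interval from -0.33 to -0.035. Without ketogenic mouse 2, Procr had a log2 fold change of -0.24 and was among the 3.05% of genes called in that fit, the one setting in which a member was called. Ketogenic mouse 2 also had the lowest platelet marker sum, 234 CPM. With all mice, the log2 fold change of Procr was -0.25 (adjusted p = 0.194) with the platelet score as a covariate and -0.16 (adjusted p = 0.601) with the cardiomyocyte score.

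Tfpi (chr2:84432855-84476775, minus strand) was the anticoagulant member with a positive value. Normalized counts of Tfpi were 1594, 1612, 1773, 1861 and 1632 in the control mice and 1791, 1750, 2228, 2080 and 1764 in the ketogenic mice. Ketogenic mice 3 and 4 were above every control mouse, and the other 3 lay inside the control range. The means were 1695 ± 117 and 1922 ± 218, a log2 fold change of 0.18 (SE 0.0744) with a 95% interval from 0.02 to 0.34. The cardiomyocyte marker sum was also highest in ketogenic mice 3 and 4, at 948 and 886 CPM. When a cardiomyocyte marker score was added to the fit, the log2 fold change of Tfpi was -0.00996 (SE 0.0763), so its direction was not kept. That fit cannot separate cardiomyocyte RNA from diet, and the part of cardiomyocyte RNA in the Tfpi value was not tested.

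The plasminogen activators and the urokinase receptor gave no called difference either. Plat (chr8:22757727-22782844, plus strand), whose product converts plasminogen to plasmin on fibrin, had 4617 to 4842 raw reads. Normalized counts of Plat were 4986, 4559, 4809, 4872 and 4685 in the control mice and 4674, 4837, 4644, 4551 and 4412 in the ketogenic mice. As for Thbd, the reads were near the number of start positions, and the mice ranked in nearly the reverse of their scaled library sizes. The log2 fold change of Plat was -0.049 (SE 0.0333) with a 95% interval from -0.12 to 0.024, and 0.015 (SE 0.0398) after correction for start positions. As with Thbd, neither value may bound the change in Plat RNA.

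Plau (chr14:20836660-20843385, plus strand) encodes urokinase, which activates plasminogen at the cell surface, and used few of its start positions. Normalized counts of Plau were 306, 201, 243, 214 and 311 in the control mice and 234, 343, 355, 302 and 267 in the ketogenic mice. Ketogenic mice 2 and 3 exceeded all control mice, while ketogenic mouse 1 lay in the lower part of the control range. The means were 255 ± 51.0 and 300.3 ± 50.9, and the log2 fold change was 0.24 (SE 0.152) with a 95% interval from -0.094 to 0.57. When the cardiomyocyte marker score was added to the fit it was -0.0059 (SE 0.213), and with the platelet score 0.02 (SE 0.193). Neither fit can separate the RNA of those cells from diet.

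Plaur (chr7:24462484-24475968, plus strand) encodes the receptor that gathers urokinase at the cell surface. Normalized counts of Plaur were 2055, 2200, 2275, 2192 and 2240 in the control mice and 2094, 2231, 1894, 2174 and 2045 in the ketogenic mice. Ketogenic mice 3 and 5 lay below all control mice and the other 3 within their range. The log2 fold change of Plaur was -0.071 (SE 0.0467) with a 95% interval from -0.17 to 0.031. After correction for start positions it was -0.091 (SE 0.0823). As Plaur used 63.2% to 76.6% of its start positions, the interval may not bound the change in its RNA.

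Of the surrounding pathway genes, 2 differed between the diets, Tfpi2 and Unc13d. Across 6 lists of coagulation, anticoagulant, fibrinolysis, protease-activated receptor, Weibel-Palade body and transcription factor genes, 73 of 74 names were in the table and 55 were tested. In the edgeR fit 2 of the 55 were called, Tfpi2 higher and Unc13d lower on the ketogenic diet, or 3.64% against 1.34% of all tested genes. DESeq2 called 7, where it called 5.54% of all genes it gave an adjusted p. The lists were chosen with earlier results of these data known, so these counts describe the lists and no more. The median log2 fold change of the 55 was -0.049, with 31 below 0 and 24 above. Several factors made by the liver were almost without reads: Fga, Fgg, Plg, Serpina5 and Serpina10, named after their values were seen, had 0 or 1 read in each mouse.

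By role, 1 of 8 tested anticoagulant and antiplatelet genes rose (Tfpi2), and 1 of 16 tested genes of von Willebrand factor storage, release and clearance fell (Unc13d). The counts that follow stand against 17.8% of all tested genes at an unadjusted p under 0.05 (9.26% lower, 8.57% higher) and 5.54% called by DESeq2, and the lists are too short to read a share from. In the storage list 6 genes passed an unadjusted p of 0.05, 5 of them lower, and DESeq2 called 4. The diets did not overlap in 1 gene of that list, Angpt2, against 4.34% of all tested genes. Its normalized counts were 2332 to 2715 on the control diet and 1945 to 2318 on the ketogenic diet, and edgeR did not call it. Of the 10 tested coagulation factors and processing genes edgeR called 0, with 3 at an unadjusted p under 0.05, all lower, and 1 called by DESeq2; their median log2 fold change was -0.22. Of the 10 tested fibrinolysis regulators edgeR called 0, with 2 at an unadjusted p under 0.05 and 0 called by DESeq2. Of the 4 protease-activated receptors edgeR called 0, with 3 at an unadjusted p under 0.05 and 1 called by DESeq2. Of the 7 transcription factors edgeR called 0, with 3 at an unadjusted p under 0.05 and 0 called by DESeq2.

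Tfpi2 encodes a Kunitz-type protease inhibitor related to Tfpi that acts on plasmin and other proteases. Its normalized counts were 352, 308, 393, 276 and 321 in the control mice and 493, 407, 509, 506 and 534 in the ketogenic mice. All 5 ketogenic mice were above all 5 control mice. The log2 fold change of Tfpi2 was 0.57 (SE 0.103, edgeR adjusted p = 0.024). In fits that left out 1 mouse it was between 0.51 and 0.64, and the adjusted p of Tfpi2 was above 0.05 without control mouse 2 (0.0657), control mouse 5 (0.0517), ketogenic mouse 3 (0.0549), ketogenic mouse 4 (0.0557) or ketogenic mouse 5 (0.0531). With a cardiomyocyte score in the fit it was 0.53 (adjusted p = 0.219) and with a platelet score 0.61 (adjusted p = 0.0718).

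Unc13d encodes Munc13-4, which primes secretory granules for release in platelets and leukocytes and takes part in von Willebrand factor secretion. Its normalized counts were 261, 307, 287, 281 and 205 in the control mice and 206, 146, 167, 140 and 144 in the ketogenic mice. Ketogenic mouse 1 and control mouse 5 met at the boundary and the rest were apart. The log2 fold change of Unc13d was -0.74 (SE 0.136, edgeR adjusted p = 0.025). With the platelet score as a covariate it was -0.43 (adjusted p = 0.167), and with the cardiomyocyte score -0.59 (adjusted p = 0.265). In fits without 1 mouse Unc13d lay between -0.84 and -0.68, and its adjusted p was above 0.05, from 0.0534 to 0.0724, without control mouse 1, 2, 3 or 4 or ketogenic mouse 3, 4 or 5.

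**Figure D4:**
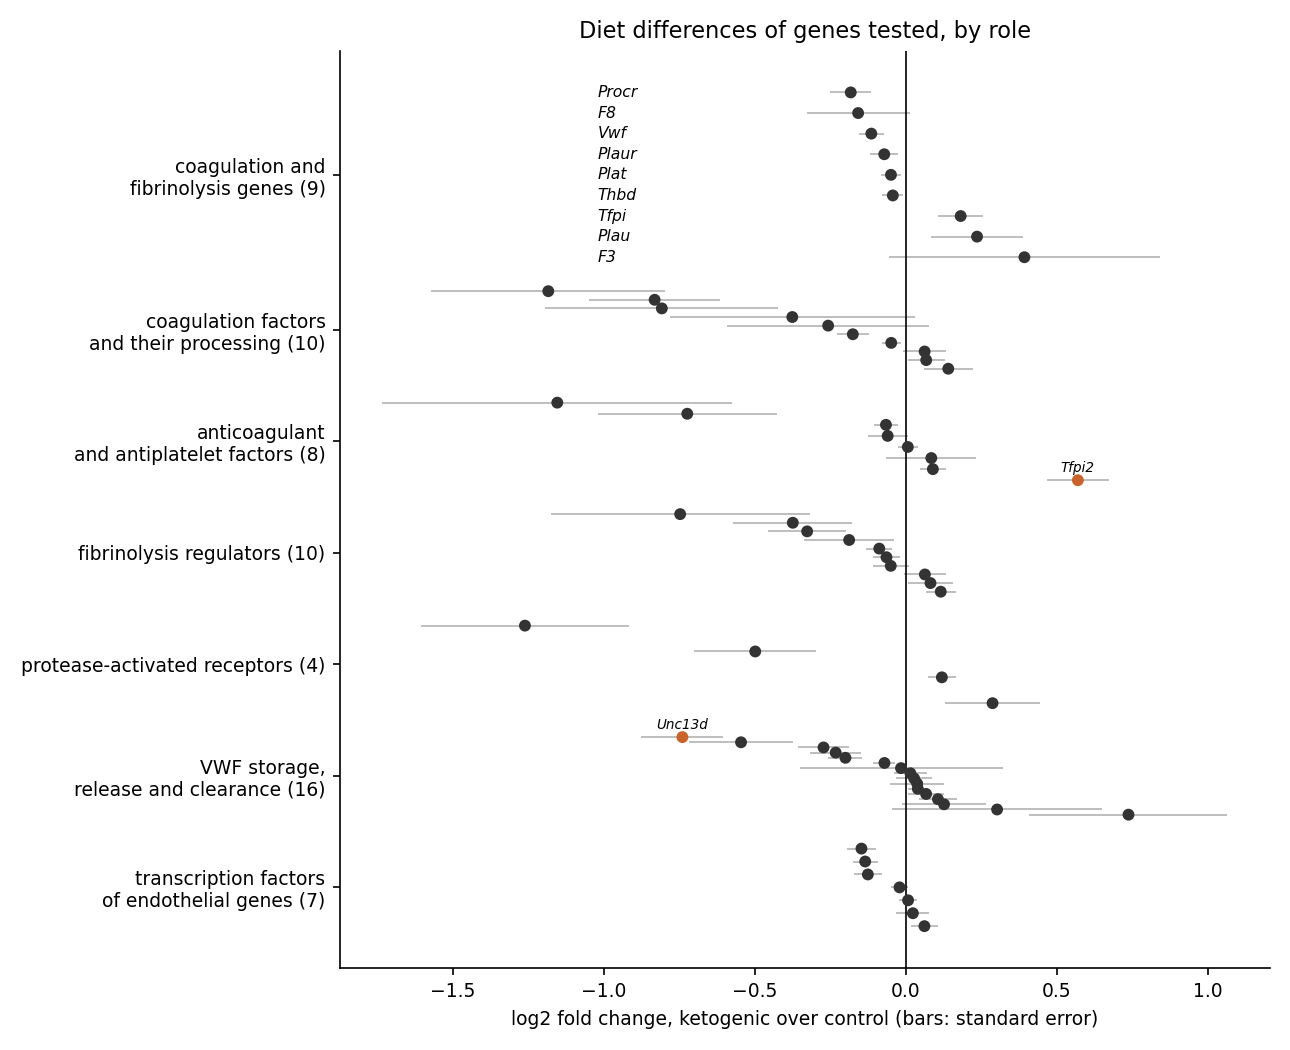
Log2 fold change, ketogenic over control (x axis, bars are 1 standard error), of the tested genes, grouped by role (y axis, number of genes in brackets). Orange points passed an adjusted p of 0.05 in edgeR: Tfpi2 at 0.57 and Unc13d at -0.74, while the 9 members lie between -0.18 and 0.39.

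None of the other genes with the highest RPKM in each role passed the test. In the carboxylation and secretion machinery, Ggcx, the vitamin K-dependent carboxylase, had a log2 fold change of -0.18 (SE 0.0536), and Mcfd2, a cargo receptor subunit for factors V and VIII, of -0.048 (SE 0.031). Among anticoagulant genes, Pros1, protein S, had 0.09 (SE 0.0431) and Anxa5, annexin A5, -0.065 (SE 0.0406). Anxa2 and S100a10, which form the plasminogen-binding annexin complex, had -0.088 (SE 0.043) and -0.064 (SE 0.0448). The raw reads of Anxa5, Anxa2 and S100a10 reached 85.3%, 103% and 86.9% of their start positions, as near to that number as Plat and Thbd, so their small values carry the same limit. Mcfd2 and Pros1 reached 72.3% and 65.8%, so the limit given for Plaur and Vwf holds for them.

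Of the protease-activated receptors, F2r, the main thrombin receptor of endothelium, had a log2 fold change of 0.12 (SE 0.0475) and F2rl1, a receptor for trypsin-like proteases, of -0.50 (SE 0.203). In the storage list, Edn1, endothelin 1, which is also kept in Weibel-Palade bodies, had 0.028 (SE 0.0587), and Mmrn2, an endothelial matrix protein, had -0.07 (SE 0.0363). Klf2, a flow-responsive activator of Thbd, had -0.13 (SE 0.0409), and Fli1, an ETS factor of endothelial genes, -0.02 (SE 0.0282). Mmrn2 used up to 90.1% of its start positions, Fli1 up to 79.5%, Edn1 up to 73.5%, F2r up to 56.9% and Klf2 up to 51.4%. Their small values thus carry the limit given for Plaur and Vwf, while F2rl1 used at most 9.80%. The adjusted p of these 6 genes lay above 0.05.

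Platelet RNA differed between these libraries and moved with part of the clotting genes. It was not the only such difference. All 9 cardiomyocyte markers had a log2 fold change above 0, with a median of 0.33. Of these, 7 passed an unadjusted p of 0.05, where 17.8% of all tested genes did. After adjustment edgeR called 0 of the cardiomyocyte markers and DESeq2 called 5. Of 7 arterial endothelial markers, 6 were below 0, 3 passed an unadjusted p of 0.05, and edgeR called 1, lower on the ketogenic diet. Their sum was 2049 to 2264 CPM on the control diet and 1771 to 2179 CPM on the ketogenic diet. Of 8 macrophage and monocyte markers, 6 were below 0, with 4 lower and 1 higher at an unadjusted p under 0.05. The part of these cell types in the member values was not tested. All 9 platelet and megakaryocyte markers had a log2 fold change below 0, with a median of -0.87, and 8 of them passed an unadjusted p of 0.05, while edgeR called 0 after adjustment and DESeq2 called 2. Their summed level was 541, 741, 756, 892 and 528 CPM in the control mice and 614, 234, 511, 246 and 373 CPM in the ketogenic mice. Ketogenic mice 2, 3, 4 and 5 were thus below every control mouse, with 2 and 4 the lowest. Pf4, platelet factor 4, had 863 to 1101 normalized counts on the control diet and 541 to 880 on the ketogenic diet. Itga2b, the platelet integrin subunit that binds fibrinogen, had 1641 to 3327 and 651 to 2256. Pf4 used 44.0% to 88.9% of its start positions and Itga2b 9.06% to 46.0%. The sizes of the platelet marker differences, and of the score made from them, are therefore uncertain.

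Several non-member clotting genes, named after their values were seen, had the same ketogenic mice at the bottom. F5, factor V, had 309, 477, 470, 686 and 273 normalized counts in the control mice and 303, 72.1, 330, 100.1 and 169 in the ketogenic mice. Its log2 fold change was -1.18 (SE 0.387, edgeR adjusted p = 0.146) and became 0.021 with the platelet score as a covariate. F13a1, the A subunit of factor XIII, had -0.83 (SE 0.218, adjusted p = 0.0805) and -0.26 with the covariate. F2rl2, protease-activated receptor 3, had -1.26 (SE 0.345, adjusted p = 0.0925) and -0.20 with it. These genes were named for low values in the mice with few platelet reads, so a smaller value with the score follows from that choice. The platelet sum was also below every control mouse in most ketogenic mice, so this fit cannot separate platelet RNA from diet. The covariate was chosen after seeing the data, and the part of platelet RNA in these results was not tested.

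With the platelet score in the fit the member values shifted in both directions. The shifts were not tested, and the members were not compared with other genes by a test. With that score as a covariate, the log2 fold change of Vwf, which platelets also hold, went from -0.11 to -0.085 (SE 0.0587). That of Procr went from -0.18 to -0.25 (SE 0.095) and that of Tfpi from 0.18 to 0.27 (SE 0.102). F8 changed sign, from -0.16 to 0.15 (SE 0.208), Plau went from 0.24 to 0.02 (SE 0.193), and Plaur from -0.071 to -0.14 (SE 0.0628). Thbd (-0.058), Plat (-0.054), F3 (0.34) and Vwf stayed within 1 SE of their values without it. The shifts of Procr and Tfpi were also smaller than their SE in the fit with the score. None of the 9 was called in that fit.

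**Figure D5:**
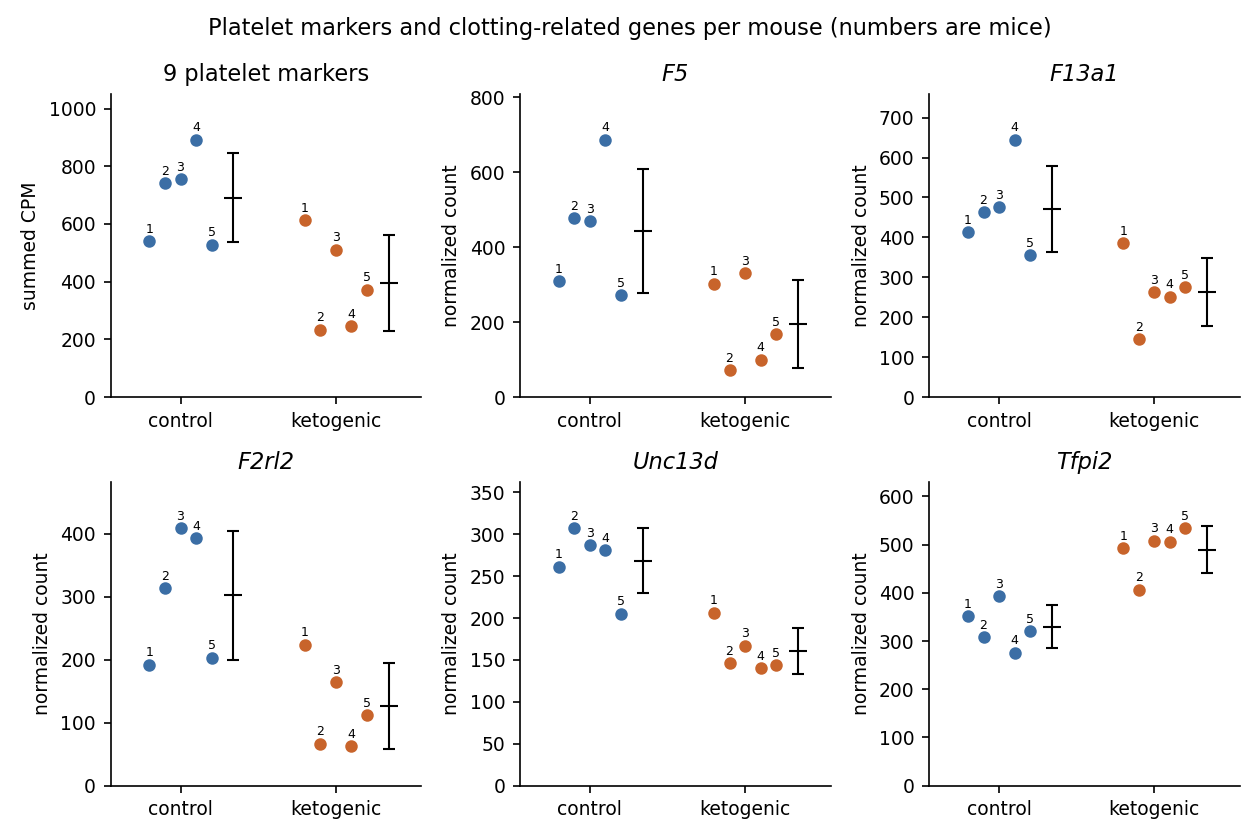
Summed CPM of 9 platelet markers and normalized counts of 5 clotting-related genes (y axes, starting at 0) in the 5 control and 5 ketogenic mice, each point a mouse with its number, with mean and SD in black. Ketogenic mice 2 and 4 are lowest in the marker sum, at 234 and 246 CPM, and also lowest in F5, F13a1 and F2rl2, while Tfpi2 is above all controls in every ketogenic mouse.

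For the 3 members with the most reads, the genes whose log2 CPM varied most alike within the diets were sought over the 10 mice among 10880 genes, as a description. Vwf was most like Lamp2 (Pearson r = 0.956) and Fam174b (r = 0.95). Thbd was most like Gm16418 (r = 0.995) and Lgals9 (r = 0.99), and Plat most like Serpinh1 (r = 0.996) and Tmem250-ps (r = 0.996). Of their start positions, Lamp2 used up to 73.5%, Fam174b up to 7.14%, Gm16418 up to 34.8%, Lgals9 up to 91.2%, Serpinh1 up to 91.9% and Tmem250-ps up to 56.5%. Library depth is shared by all these points. The raw reads of Thbd and Plat hardly varied, so their log2 CPM mainly followed library size in reverse. A high r for Thbd or Plat therefore cannot be read as shared regulation.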

How the data were processed

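RNA from CD31+ cardiac cells of 10 mice was made into SMART-Seq v4 libraries from 10 ng RNA and sequenced as 50-base single reads, without strand. The authors deposited raw read counts per gene and RPKM values per gene. The submitters' processing notes name bcl2fastq 2.17.1.14, STAR 2.3, HTSeq 0.6.0 and mm10. Of 46983 identifiers, 46488 were found in GENCODE M21 (GRCm38, the mm10 assembly) without regard to version, and coordinates come from it. Members and lists were chosen with earlier results of these data known.

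Counts were tested with edgeR 4.0.16 (R 4.3.3): filterByExpr, TMM, glmQLFit and glmQLFTest on diet alone, Benjamini-Hochberg over 15949 genes, called at 0.05. Each SE was obtained from the log2 fold change and its F statistic. Levels used the deposited RPKM on the log2 scale with a pseudocount of 0.1. The labels number the libraries 1 to 5 in each diet, each was taken as 1 mouse and 1 replicate, and within-diet library pairs differed by more than sampling noise (chi-square per gene 4.64 to 10.1). Alternatives were other scalings and filters, DESeq2 1.42.0, limma 3.58.1 on log2(RPKM + 1 or 0.1), a replicate block, cardiomyocyte and platelet scores as covariates, start-position correction, the longest coding transcript as the length for levels and leaving out each mouse. Each correction used -N ln(1 - count/N), N being the start positions and the share capped at 99%. Genes named were the members, the called genes and the 2 of highest RPKM in each pathway list, the first 2 of the marker lists described, and the 2 genes most like each of the 3 members with most reads (mean count of at least 100). F5, F13a1, F2rl2, Angpt2 and the genes at 0 RPKM were named after their values were seen.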

Additional observations from a re-analysis of the deposited data

Results flagged for a closer look

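Of 74 groups of 5 mice examined for a single distant value, 4 had one, where chance gives 1 in 20, or 3.7. Edn1, which encodes endothelin 1, had 3062 normalized counts in control mouse 1, against 2606 to 2735 in the other 4 control mice. The summed macrophage and monocyte markers stood at 574 CPM in control mouse 1, against 170 to 258 CPM in the other control mice. In ketogenic mouse 4 they stood at 314 CPM, against 151 to 190 CPM in the other ketogenic mice. The summed capillary endothelial markers stood at 2037 CPM in ketogenic mouse 2, against 1850 to 1878 CPM in the other 4 ketogenic mice. None of the 9 members held such a value in either diet.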

How the results depend on the processing

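With 5 mice per diet, the smallest differences the members could show were set by the spread between mice and, for Plat, Thbd, Plaur and Vwf, by the start positions. Of the member values under each alternative, the log2 fold change changed sign in 5: Tfpi -0.00996 and Plau -0.0059 with the cardiomyocyte score, F8 0.15 with the platelet score, and Thbd 0.017 and Plat 0.015 after start-position correction, in which F3 was not tested. The cause was not tested. Procr was called only without ketogenic mouse 2, with -0.24 (edgeR adjusted p = 0.035). The number of genes called was 213, and it was 815 with DESeq2, 113 with the replicate block, 21 with the cardiomyocyte score and 86 to 492 when 1 mouse was left out. The pathway genes called were 2, and 7 with DESeq2, 1 with the block, 0 with either the cardiomyocyte or the platelet score, and 0 to 3 when 1 mouse was left out. The replicate numbers in the labels showed no sign of pairing the mice: correlations of same-numbered mice ran from -0.134 to 0.0936, and 0 of 5 correlated best with their own number. With so few mice this cannot exclude a pairing by litter or handling. The paper calls the control mice littermates, and which mice shared a litter was not among the sample values used here. In the block fit no member was called. With 1 mouse left out, the log2 fold change of Procr was between -0.24 and -0.14. In the control mice alone, 0 of the 8 neighbour pairs of levels could pass, since 5 mice allow no exact p under 0.05, and leaving out each mouse gave 7 of 8. With the length of the longest coding transcript, 8 of 8 differed, Plaur and Vwf included.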
